A study of Mus musculus with 3 samples.

Results

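Inhibitory checkpoint receptors are surface proteins that restrain T cells, and 9 of their genes were followed here among the 32285 genes of the deposited tables: Pdcd1, Lag3, Havcr2, Ctla4, Btla, Cd160, Vsir, Cd200r1 and Cd5. The genes were chosen by name and not by a rule on their values, though with earlier results of these data known. They were measured by droplet single-cell RNA sequencing (10x Genomics 3′ chemistry) in 3 libraries of live CD45+ cells sorted from pancreatic islets of wild-type female NOD mice, a strain that develops autoimmune diabetes spontaneously. The mice were 15 to 16 weeks old, and each library pooled the islets of 2 to 3 of them. All libraries belong to the same group, without treatment, so the comparisons are between cell classes within the libraries, and no value is that of a single animal.

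Cells were put into 5 classes by unique molecular identifiers (UMIs, counts of captured transcripts) of lineage genes, none of which is among the 9. A CD8 T cell had at least 1 Cd3e UMI, at least 2 UMIs of Cd8a and Cd8b1 together and no Cd4 UMI. A CD4 T cell had Cd3e and Cd4 but no Cd8a, Cd8b1 or Foxp3 UMI. A regulatory T cell (Treg) had Cd3e and Foxp3, a B cell at least 2 Cd79a UMIs without Cd3e, and a macrophage at least 5 UMIs of C1qa and C1qb together without Cd3e and with at most 1 Cd79a UMI. This gave 3199 CD8 T cells, 5858 CD4 T cells, 1612 Treg cells, 4936 B cells and 68 macrophages. A Treg cell without a captured Foxp3 UMI could be classed as a CD4 T cell by these rules. The macrophages came to 31, 10 and 27 cells in replicates 1, 2 and 3, so each of their values rests on few cells.

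As background, a T cell is activated through its antigen receptor together with costimulatory receptors such as CD28, and inhibitory receptors on the same cell set a limit to that signal. Some of them carry tyrosine motifs in their tails that recruit the phosphatases SHP-1 and SHP-2. Several rise after activation and stay high under persistent antigen, the setting of chronic infection, tumours and islet inflammation. In NOD mice, blockade of the PD-1 pathway is known to bring on diabetes. PD-1 (Pdcd1) binds PD-L1 and PD-L2, CTLA-4 (Ctla4) takes the ligands CD80 and CD86 from CD28, and LAG-3 (Lag3) is related to CD4 and binds MHC class II. TIM-3 (Havcr2) is found on T cells and myeloid cells, and VISTA (Vsir) mainly on myeloid cells and resting T cells. BTLA (Btla) and CD160 (Cd160) both bind HVEM. CD200R1 (Cd200r1) binds CD200, and CD5 (Cd5) tunes antigen receptor signalling in T cells and in some B cells.

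The gene positions are those of GENCODE M21 on GRCm38, the assembly also called mm10. Ctla4 lies on chromosome 1 from 60887000 to 60915832, with the costimulatory genes Cd28 113640 bases to one side and Icos 62094 bases to the other, and Pdcd1 lies on the same chromosome from 94038305 to 94052553. Lag3, on chromosome 6 from 124904361 to 124911705, is 16139 bases from Cd4. Cd200r1 (chromosome 16, 44765736 to 44794978) stands beside its paralogs Cd200r4, Cd200r2 and Cd200r3, so its counts are uncertain where reads could be shared. Btla is on the same chromosome from 45224315 to 45257670, Havcr2 on chromosome 11 from 46454935 to 46481255, and Cd5 on chromosome 19 from 10717116 to 10739002. Vsir (chromosome 10, 60346851 to 60372684) lies within Cdh23 on the opposite strand, and Cd160 (chromosome 3, 96798763 to 96829351) overlaps Pdzk1 on the opposite strand.

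The libraries held 5844, 9537 and 11566 cells with 33851381, 74775394 and 80806452 UMIs, and 26142 cells had at least 1000 UMIs and under 10% mitochondrial UMIs. Of these, 10410 met no class rule and 59 met the rules of both CD8 T and Treg cells and were left out. Replicate 1 stood apart: it was the shallowest, and its T cells and B cells held 73.5 to 95.2 CPM (UMIs per 1000000 UMIs) of 4 endocrine marker genes together against 3.68 to 24.2 in the others. Pairs of libraries shared 12, 18 and 29 cell barcodes. The classes carried their defining markers, which was partly fixed in advance, since the class rules use some of them. The 5 T cell markers, none of them in the rules, summed to 3231 to 4532 CPM in the T cell classes. They summed to 114 to 140 CPM in B cells and 0 to 41.2 CPM in macrophages. The T cells also carried RNA of other classes. A Cd79a UMI was present in 19.7% to 32.1% of Treg cells and 9.80% to 16.5% of CD4 T cells per library, and a CD8 UMI in 8.52% to 15.8% of Treg cells. The summed level of 5 B cell markers was 363 to 758 CPM in Treg, 246 to 456 CPM in CD4 T and 109 to 277 CPM in CD8 T cells. The part of this RNA in the results was not tested. The summed level of 4 Treg markers, Foxp3 among them, was 1628 to 1900 CPM in Treg cells. It was 508 to 644 CPM in CD4 T and 366 to 452 CPM in CD8 T cells. The part of Treg cells with a missed Foxp3 in the CD4 T values was not tested.

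Levels are given as CPM over all cells of a class in a library, and since a class is summed, fewer cells with a transcript and less of it per cell are told apart only by the shares given later. Across the classes the receptors fell into 3 patterns. Pdcd1, Lag3, Ctla4, Cd5 and Cd200r1 had their highest mean level in Treg cells, with every T cell class above B cells. Cd200r1 was not particular to T cells. The 4 Cd200r1 UMIs of the macrophages put their mean, 6.76 CPM, within the T cell range and above CD8 T cells (4.11 CPM). Havcr2 and Vsir had their highest mean levels in macrophages, and Btla in B cells. Cd160 had its highest mean level in CD8 T cells, most of it from replicate 1.

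**Figure D1:**
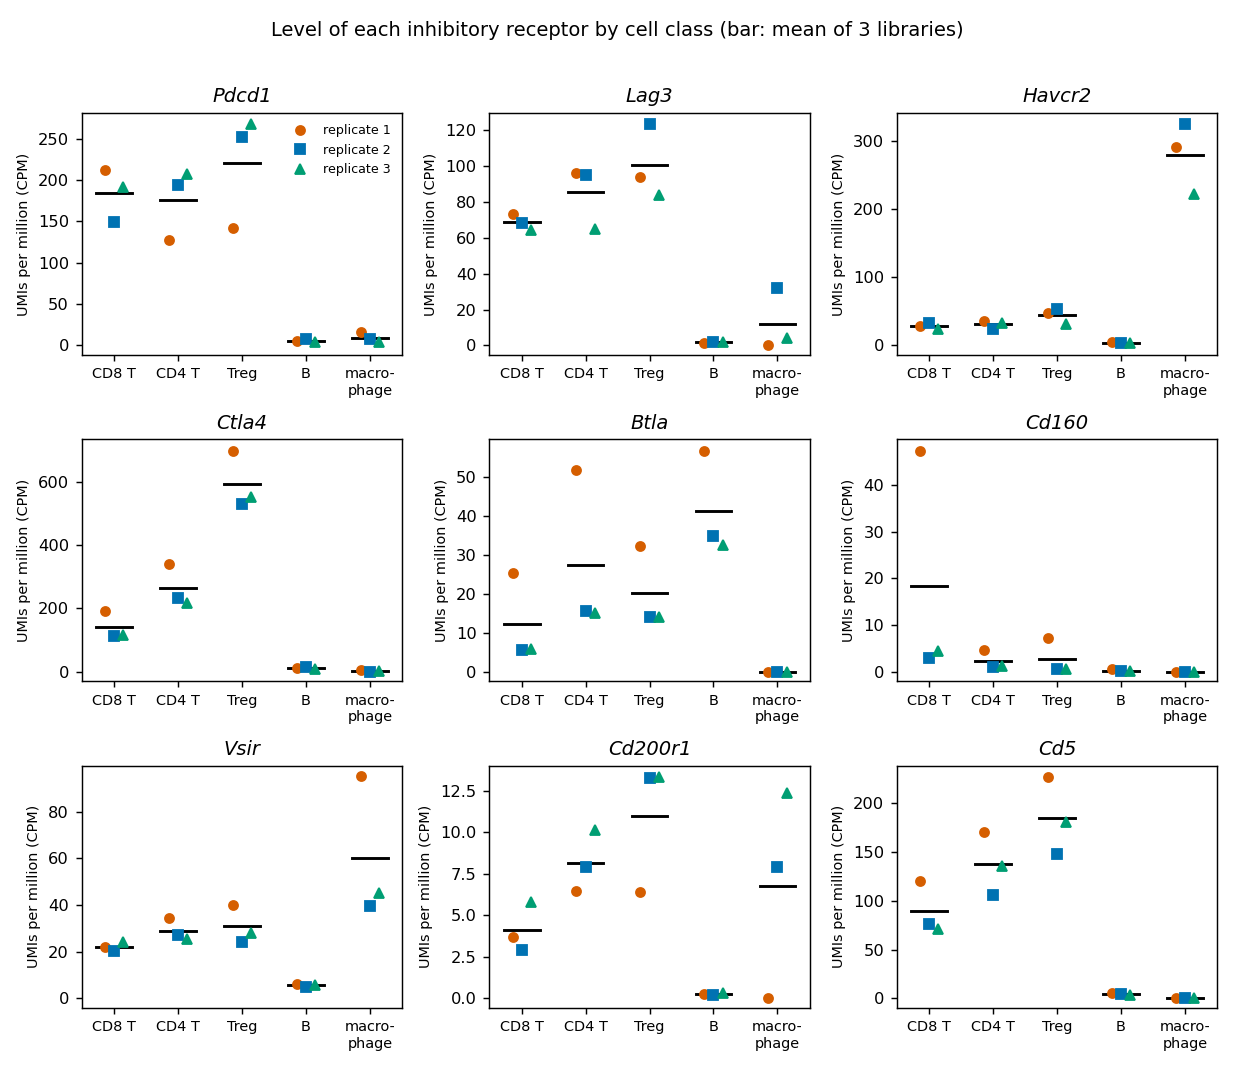
Level of each receptor in UMIs per 1000000 UMIs (CPM, linear axis from 0) in the 5 cell classes. Each point is 1 library, coloured by replicate, and the black bar is the mean of the 3 libraries. Ctla4 steps up from CD8 T to CD4 T to Treg cells (means 141, 264 and 592), Havcr2 is highest in macrophages (mean 279), and the replicate 1 points of Btla and Cd160 sit above the other replicates in the T cells.

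Pdcd1, the receptor PD-1, was detected in all 3 T cell classes. In CD8 T cells it was at 212, 149.8 and 192 CPM in replicates 1, 2 and 3. In CD4 T cells it was at 127, 194 and 207 CPM, and in Treg cells at 142, 251 and 268 CPM. Replicate 1 was the highest library in CD8 T cells and the lowest in both CD4 classes, and the ranges of all 3 classes overlapped. In B cells the 3 values were 5.21, 7.96 and 4.29 CPM, below every T cell value. Lag3 was at 73.3, 68.2 and 64.5 CPM in CD8 T cells, at 95.7, 94.9 and 65.1 in CD4 T cells, at 93.8, 123 and 83.5 in Treg cells and at 1.42, 2.06 and 1.74 in B cells. It was higher in CD4 T than in CD8 T cells in each of the 3 libraries, although the ranges of those classes overlapped.

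Ctla4, which competes with CD28 for CD80 and CD86, separated the T cell classes most clearly. Treg cells held 698, 528 and 550.5 CPM, CD4 T cells 342, 232 and 218 CPM, and CD8 T cells 193, 114 and 117 CPM. The 3 ranges did not overlap. Cd5 followed the same order of means, at 119.7, 76.5 and 71.1 CPM in CD8 T cells, 170.2, 106 and 135 CPM in CD4 T cells and 226, 148 and 180.4 CPM in Treg cells. Its order held within each library, while the ranges of neighbouring classes overlapped. Cd200r1 was at low levels, with 3.68, 2.89 and 5.77 CPM in CD8 T cells, 6.45, 7.93 and 10.1 in CD4 T cells and 6.37, 13.3 and 13.3 in Treg cells. The CD8 T values lay below all values of the other T cell classes.

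Btla and Cd160, which share the ligand HVEM, were the receptors on which the libraries differed most. Btla was at 56.6, 34.7 and 32.6 CPM in B cells, at 51.6, 15.7 and 15.1 CPM in CD4 T cells, at 32.3, 14.2 and 14.2 CPM in Treg cells and at 25.3, 5.59 and 5.96 CPM in CD8 T cells. Replicate 1 was the highest library in each of these classes. Among CD8 T cells it stood 3.88-fold above the mean of the other libraries once 1 CPM was added to each value. Of 5026 genes at a mean of 20 CPM or more in CD8 T cells, 0.955% reached or passed that distance on the same scale. Btla (12.3 CPM) and Cd160 (18.3 CPM) lie below that level. Such shares therefore set them against genes with more counts and may make replicate 1 look more unusual than it is. Cd160 was at 47.3, 3.08 and 4.51 CPM in CD8 T cells, so replicate 1 stood 10.1-fold above the others with the same 1 CPM added, and 0.0995% of the genes were as far apart. In CD4 T cells it was at 4.71, 1.06 and 1.19 CPM and in Treg cells at 7.29, 0.584 and 0.720 CPM, again highest in replicate 1. Only 289 Cd160 UMIs in 158 cells stood behind the CD8 T values.

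Havcr2 and Vsir were highest in the macrophages. Havcr2, which encodes TIM-3, was at 291, 325 and 223 CPM there, against 28.9, 33.5 and 24.5 in CD8 T cells, 36.1, 23.9 and 32.7 in CD4 T cells, 47.4, 53.6 and 32.0 in Treg cells and 5.21, 3.98 and 3.47 in B cells. No macrophage value came near those of the other classes. Vsir, which encodes VISTA, was at 95.1, 39.6 and 45.3 CPM in macrophages and between 20.3 and 40.1 CPM in the 9 T cell values, with B cells at 5.05 to 6.35 CPM. The lowest macrophage value fell within the T cell range. Btla, Cd160 and Cd5 had no UMI among the 558022 macrophage UMIs, which allows up to 5.38 CPM by counting error alone.

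The class sums were compared in edgeR's quasi-likelihood framework, blocked by library, and p-values over 12099 genes were adjusted by the method of Benjamini and Hochberg. Of the 9 receptors, 5 differed between CD8 T and CD4 T cells at an adjusted p under 0.05, where 11.2% of all genes tested did (4.55% higher in CD8 T and 6.61% higher in CD4 T cells). Only Cd160 was higher in CD8 T cells (log2 fold change 2.49, SE 0.31, adjusted p = 0.000134). It entered this fit through the CD8 T sums, where it was high, so its call is no support for a difference. Btla was lower in CD8 T cells (−1.13, SE 0.22, adjusted p = 0.00408), as were Cd200r1 (−0.92, SE 0.22, adjusted p = 0.0119), Ctla4 (−0.81, SE 0.13, adjusted p = 0.000797) and Cd5 (−0.53, SE 0.11, adjusted p = 0.00635). Pdcd1 (0.21, SE 0.21, adjusted p = 0.625), Havcr2 (0.02, SE 0.17, adjusted p = 0.969), Lag3 (−0.18, SE 0.13, adjusted p = 0.464) and Vsir (−0.24, SE 0.13, adjusted p = 0.316) did not pass. Without replicate 1, Cd160 was still called, at a log2 fold change of 1.83 (adjusted p = 0.00741). Without replicate 3 the calls fell to 2, those of Ctla4 (adjusted p = 0.0344) and Cd160 (adjusted p = 0.00415), and without replicate 2 the call of Cd200r1 was lost. The calls of Cd160 with a replicate left out are a description and likewise no support for a difference.

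Between Treg and CD4 T cells Ctla4 alone passed, where 5.77% of all genes did (3.48% higher in Treg and 2.29% higher in CD4 T cells), at a log2 fold change of 1.11 higher in Treg cells (SE 0.13, adjusted p = 0.000105). It stayed called without each replicate. Cd5 was next by p, at 0.35 (SE 0.11, adjusted p = 0.0858), and passed without TMM factors, under the cell filter of the study and in cells without a UMI of another class. Pdcd1 differed by 0.24 (SE 0.21, adjusted p = 0.640), and under the cell filter of the study CD4 T cells fell below Treg cells by −0.67 (adjusted p = 0.0167). Between Treg and CD8 T cells 4 receptors passed, against 16.7% of all genes (6.81% higher in CD8 T and 9.86% higher in Treg cells). Ctla4 (1.91, SE 0.14, adjusted p = 1.82e-07), Cd200r1 (1.30, SE 0.23, adjusted p = 0.000934) and Cd5 (0.88, SE 0.11, adjusted p = 0.000104) were higher in Treg cells, and Cd160 was lower (−2.74, SE 0.36, adjusted p = 0.000129). The call of Cd160 is again no support for a difference, since the gene entered this fit through the CD8 T sums. Btla missed the threshold there (adjusted p = 0.0549) but was called without replicate 1 (adjusted p = 0.000541). Cd200r1 was lost without replicate 2 (adjusted p = 0.121).

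The scaling bears on these comparisons. Without TMM factors the median gene moved by −0.11 on the log2 scale for CD8 T against CD4 T cells and by −0.20 for CD8 T against Treg cells. The share of called genes that were higher in CD8 T cells then fell from 40.7% to 24.9% and from 40.9% to 16.3%. Against Treg cells 7 receptors rather than 4 passed, all 4 of the calls above among them. Over all 12099 genes the calls in that comparison rose from 2017 to 2597. The sign of Havcr2 between CD8 T and CD4 T cells also turned, to −0.09, and that of Pdcd1 turned without replicate 1, to −0.14.

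**Figure D2:**
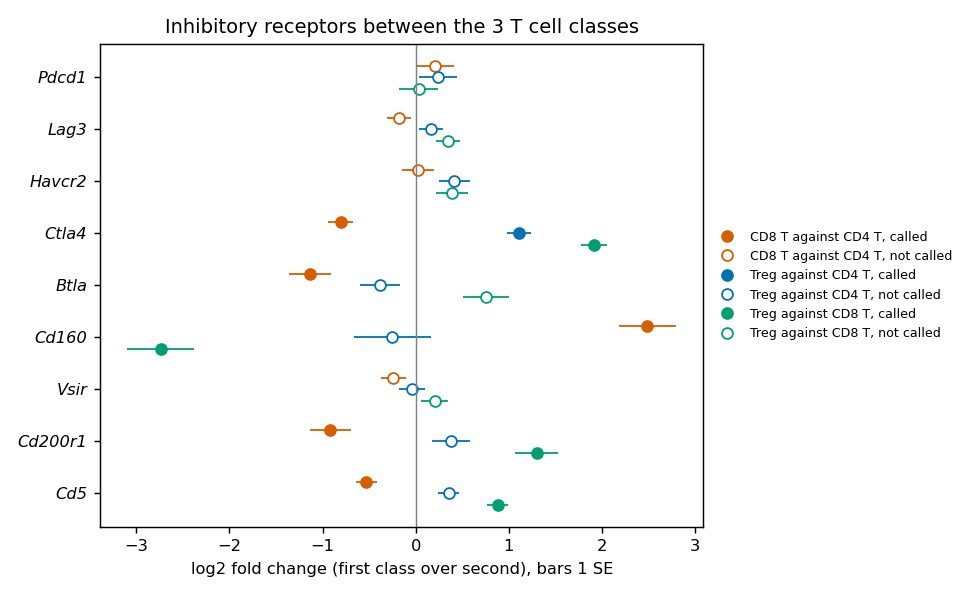
Log2 fold change of each receptor between pairs of T cell classes, with bars of 1 standard error. Filled points passed an adjusted p of 0.05 and open points did not. Ctla4 is filled in all 3 comparisons, while Pdcd1, Lag3, Havcr2 and Vsir are open in all 3.

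Against B cells every receptor passed in each T cell class, where 48.7% of all genes did for CD8 T, 51.6% for CD4 T and 48.4% for Treg cells. The shares of genes higher in the T cells were 26.5%, 27.2% and 25.9%, and those of genes higher in B cells 22.3%, 24.4% and 22.5%. In each of these comparisons 8 receptors were higher in the T cells, and Btla was higher in B cells. Among the 8, Cd160 and Cd200r1 were under the count filter in every B cell sum. They entered the fit through T cells, where they were high, so their calls are no support for a difference. For CD4 T cells the log2 fold changes of the 8 ran from 2.22 for Vsir (SE 0.15, adjusted p = 9.74e-09) to 5.46 for Lag3 (SE 0.19, adjusted p = 1.10e-11). Btla was lower in CD4 T cells by a log2 fold change of −0.93 (SE 0.19, adjusted p = 0.00101) and in CD8 T cells by −2.06 (SE 0.22, adjusted p = 3.25e-06). All 9 calls held without each replicate.

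Against macrophages 7 receptors passed for CD8 T cells (37.0% of all genes), 7 for CD4 T cells (35.8%) and 7 for Treg cells (33.7%), in each case 5 higher in the T cells (21.7%, 20.8% and 19.8% of all genes) and 2 higher in macrophages (15.3%, 15.0% and 14.0%). Havcr2 was lower than in macrophages by log2 fold changes of −3.13 (SE 0.25, adjusted p = 7.50e-08) in CD8 T, −3.15 (SE 0.24, adjusted p = 6.52e-08) in CD4 T and −2.74 (SE 0.24, adjusted p = 3.79e-07) in Treg cells, and by −5.91 in B cells (SE 0.29, adjusted p = 7.64e-10). Vsir was lower by −1.32, −1.07 and −1.11 in the 3 T cell classes (adjusted p = 0.00303, 0.0101 and 0.00976), and these calls were lost without replicate 1 (adjusted p = 0.111, 0.196 and 0.139). Pdcd1, Lag3 and Ctla4 were higher in each T cell class. The other receptors called higher in T cells were Cd5 and either Btla or Cd160, none with a macrophage UMI. These entered the fit only through classes where they were high, so their calls against macrophages are no support for a difference. Ctla4 rested on 2 macrophage UMIs, and its pooled ratio of CD4 T cells to macrophages was 66.9 with an exact 95% counting interval of 18.5 to 553. Cd5, with no macrophage UMI, was at least 15.1-fold higher in CD8 T, 23.9-fold in CD4 T and 32.2-fold in Treg cells, taking 3 counts over the pooled macrophages as the floor. By the same floor Btla was at least 3.76-fold higher in CD4 T and 3.06-fold in Treg cells, and Cd160 at least 2.05-fold in CD8 T cells, of which Btla in Treg cells lost its call without replicate 3 (adjusted p = 0.0852) and Cd160 without replicate 1 (adjusted p = 0.175). These bounds move with the library left out, since the pooled macrophage UMIs fall too. Without replicate 1 and without replicate 3 they were 9.07 and 9.35 for Cd5 in CD8 T, 15.0 and 12.9 in CD4 T and 20.4 and 17.5 in Treg cells, and 1.74 and 1.95 for Btla in Treg cells. Btla in CD4 T cells came to 1.89 without replicate 1, and Cd160 in CD8 T cells to 0.468, which is no longer a bound above 1. Between B cells and macrophages 5 receptors passed (36.0% of all genes, 20.6% higher in B cells and 15.4% in macrophages). Btla was at least 7.59-fold higher in B cells (4.16 without replicate 1 and 4.64 without replicate 3), while Havcr2, Vsir (−3.29, SE 0.36, adjusted p = 2.60e-06) and Cd200r1 (−4.52, SE 1.06, adjusted p = 0.00325) were lower. Btla had no macrophage UMI, and Cd200r1 was under the count filter in every B cell sum. Both entered the fit through classes where they were high, so their calls here are no support for a difference. The call of Cd200r1, which rested on 9 B cell and 4 macrophage UMIs, was lost without replicate 3 (adjusted p = 0.228), and that of Ctla4 (1.91, adjusted p = 0.0427) when any replicate was left out.

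Shares of cells with a UMI were taken in cells thinned to 2000 UMIs, so that all classes are read at one depth. Free RNA gives every droplet some UMIs, and the share in B cells is given beside each as the level in another class. Pdcd1 was detected in 21.5% ± 5.25 of CD8 T cells, 20.9% ± 0.821 of CD4 T cells and 29.7% ± 6.04 of Treg cells (mean ± SD, n = 3 libraries), against 0.841% ± 0.102 of B cells. Ctla4 was detected in 20.9% ± 6.26, 34.0% ± 9.97 and 64.8% ± 7.53 of the 3 T cell classes and in 1.84% ± 0.388 of B cells. Lag3 was detected in 11.2% ± 3.32, 11.2% ± 3.33 and 15.4% ± 4.03, against 0.355% ± 0.0882 of B cells. Havcr2 was found in 3.63% ± 0.853 of CD8 T, 3.54% ± 1.06 of CD4 T and 5.67% ± 1.30 of Treg cells, against 0.224% ± 0.00164 of B cells and 24 of 67 macrophages. Cd5 was found in 14.5% ± 4.70, 21.4% ± 5.55 and 29.7% ± 6.75, against 0.634% ± 0.357 of B cells. No Pdcd1, Btla, Cd160 or Cd5 UMI was found in the 67 thinned macrophages, which allows a share of up to 4.48% at that depth. Without thinning, 5 of 68 macrophages held a Pdcd1 UMI (9.68%, 10.0% and 3.70% in replicates 1, 2 and 3). With 3 libraries, sign flips of the paired shares cannot give a p under 0.25, so the shares were not tested.

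The receptors differed in how their transcripts were spread over cells. Ctla4 in Treg cells was the most widely spread, with the upper 20.1% of the cells holding 50% of its UMIs. For Havcr2, 0.836% of the CD4 T cells and 1.59% of the CD8 T cells held 50% of its UMIs. This share also falls where a receptor has few UMIs, and it was 0.239% and 1.13% for Cd160 in these classes. The 145 Havcr2 UMIs of the B cell class came from 29 of 4936 cells. Thinned cells with a Havcr2 UMI also carried a macrophage marker more often, in 4.55% against 0.713% of CD8 T cells, 5.95% against 1.07% of CD4 T cells, 10.6% against 1.73% of Treg cells and 36.4% (4 of 11) against 7.80% of B cells. For Pdcd1 the same shares were 0.464% with and 0.941% without a UMI in CD8 T cells and 1.87% and 1.05% in CD4 T cells. The part of macrophage RNA in the Havcr2 values of T cells was not tested.

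At that depth, a CD8 T cell held a UMI of 0.822 ± 0.254 of the 9 receptors on average, a CD4 T cell of 1.03 ± 0.238 and a Treg cell of 1.59 ± 0.174, against 0.125 ± 0.0372 in B cells. At least 1 receptor was detected in most Treg cells, with 15.3% ± 6.43 having none, compared with 39.6% ± 11.5 of CD4 T cells and 49.0% ± 12.4 of CD8 T cells. Cells with 3 or more receptors made up 19.3% ± 4.20 of Treg, 10.4% ± 3.43 of CD4 T and 8.0% ± 3.98 of CD8 T cells. In each class replicate 1 held the highest share of such T cells, 12.6% against 5.97% and 5.43% in CD8 T cells.

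**Figure D3:**
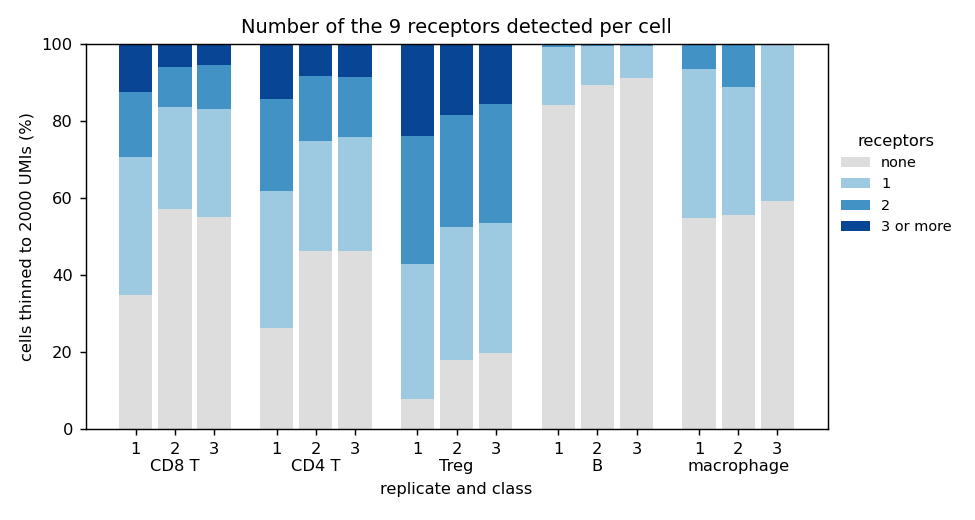
Percentage of cells in which none, 1, 2 or 3 or more of the 9 receptors had a UMI, after thinning each cell to 2000 UMIs, for each class and replicate (stacked bars from 0 to 100%). Cells without a receptor are fewest among Treg cells (7.96% to 19.9%) and most among B cells (84.1% to 91.1%), and replicate 1 has fewer of them than the other replicates in the T cells. The macrophage bars rest on 31, 9 and 27 cells.

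Co-detection asked whether a T cell with one receptor more often held another. For each of the 36 pairs, the number of thinned cells with both was set against the product of the shares within each library. Where that product came to under 5 cells over the libraries, the pair was not read. In CD8 T cells 25 pairs could be read, and 15 were above the product in all 3 libraries. In CD4 T cells 26 could be read, and 15 were above in all 3. These are descriptions of cells from 3 libraries and were not tested. The share of pairs above the product was not taken for other genes, so the counts show nothing particular to these receptors.

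Lag3 and Havcr2 had the highest odds ratio of the pairs read in both classes. Among 3197 CD8 T cells, 48 held both where the product gave 11.7 cells, an odds ratio within libraries of 7.13 (1.95, 9.42 and 13.3 in replicates 1, 2 and 3). Among 5815 CD4 T cells, 94 held both where the product gave 19.5, an odds ratio of 10.1 (4.33, 18.5 and 10.5). Pdcd1 was found with Lag3 at odds ratios of 3.13 in CD8 T and 3.50 in CD4 T cells, with Havcr2 at 3.03 and 3.20, and with Ctla4 at 2.25 and 2.46. Cd200r1, although rare, was found with Pdcd1 at 4.61 in CD8 T cells (17 cells with both) and 2.60 in CD4 T cells (40 cells). Each of these pairs was above the product in all 3 libraries.

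Vsir and Btla did not share this pattern with Pdcd1. Vsir and Pdcd1 were together in 28 CD8 T cells where the product gave 33.2 (odds ratio 0.802) and in 62 CD4 T cells where it gave 67.6 (0.892), and the libraries lay on both sides of the product. Btla and Pdcd1 were below the product in all 3 libraries of CD8 T cells, with 9 cells for a product of 10.8, a difference of few cells that no longer held in all 3 after cells with high doublet scores were removed, and the odds ratio in CD4 T cells was 1.06. In replicate 1 the odds ratios of Pdcd1 were lower than in the other libraries for Lag3 (1.82 in CD8 T and 1.95 in CD4 T cells) and for Havcr2 (1.34 and 2.09). The counts of pairs depend on depth: 5 pairs in CD8 T and 12 in CD4 T cells were above in every library after thinning to 1000 UMIs, and 26 and 25 without thinning, where deeper cells hold more of every gene.

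**Figure D4:**
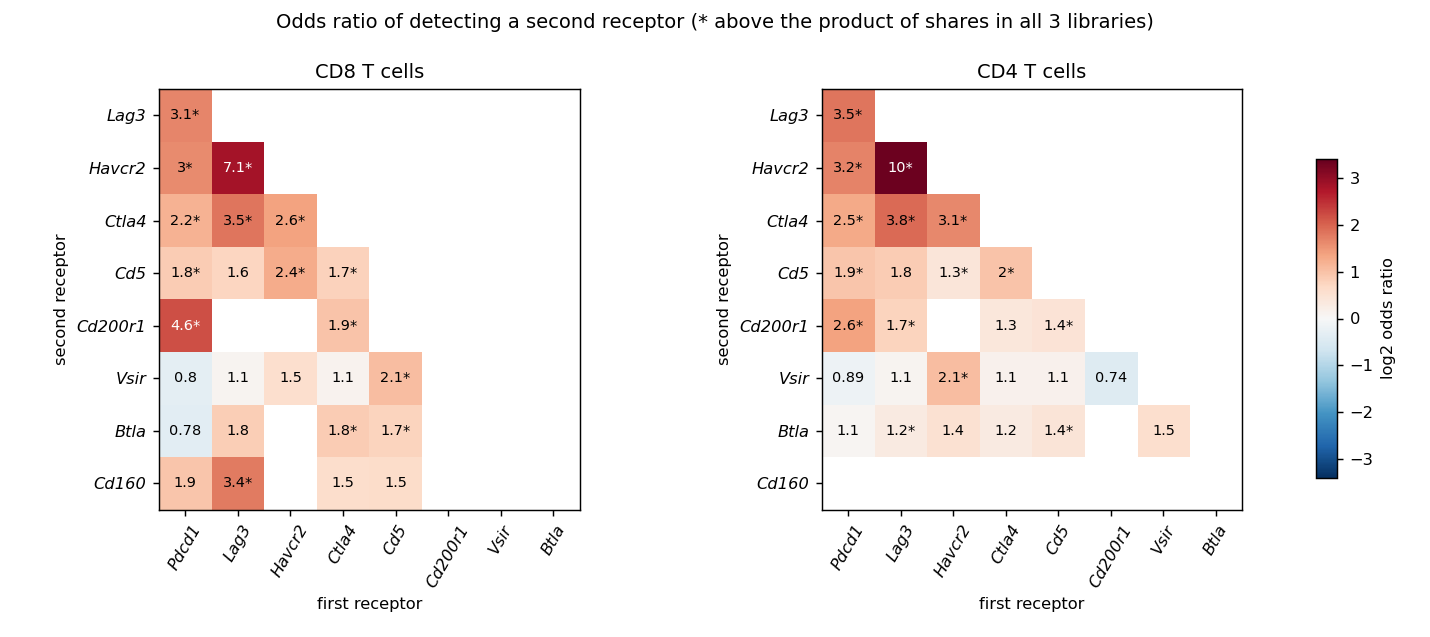
Odds ratio, stratified by library, of detecting the second receptor (vertical axis) in cells with the first (horizontal axis), for CD8 T and CD4 T cells thinned to 2000 UMIs. Colour gives the log2 odds ratio, a star marks pairs above the product of their shares in all 3 libraries, and blank pairs had under 5 cells by that product. The darkest square in both panels is Lag3 with Havcr2 (7.13 and 10.1), and the squares of Vsir with Pdcd1 lie below 1.

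T cells with and without a Pdcd1 UMI were then compared in the thinned cells, with the UMIs summed per library and group. There were 646 CD8 T cells with a Pdcd1 UMI and 1233 such CD4 T cells. In CD8 T cells with Pdcd1, Lag3 was at 134, 183 and 151 CPM against 71.1, 50.5 and 39.0 CPM in those without. Havcr2 was at 31.8, 108 and 48.0 CPM against 20.5, 20.4 and 15.6. Ctla4 was at 296, 245 and 181 CPM against 204, 86.1 and 107, and Cd5 at 172, 123 and 99.6 against 114, 63.7 and 61.9. All 4 were higher with Pdcd1 in every library, although the ranges of Ctla4 and Cd5 overlapped between the groups. By the edgeR test they passed, where 10.9% of 6164 genes did (5.19% higher and 5.69% lower with Pdcd1): Lag3 by 1.47 (SE 0.16, adjusted p = 1.02e-11), Havcr2 by 1.62 (SE 0.25, adjusted p = 4.79e-07), Ctla4 by 0.74 (SE 0.13, adjusted p = 5.73e-06) and Cd5 by 0.55 (SE 0.15, adjusted p = 0.00719). Vsir did not (−0.43, SE 0.29, adjusted p = 0.429). Btla, Cd160 and Cd200r1 were under the count filter, with Cd200r1 at 15.9, 4.81 and 21.4 CPM with Pdcd1 and 3.61, 3.06 and 4.76 CPM without.

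In CD4 T cells with Pdcd1, Lag3 was at 169, 261 and 142 CPM against 112, 57.1 and 46.9, and Havcr2 at 73.0, 57.9 and 47.9 CPM against 35.8, 14.4 and 12.5. Cd200r1 was at 22.5, 11.1 and 20.6 CPM against 3.51, 5.71 and 8.38. Each was higher with Pdcd1 in every library. Ctla4 was at 519.7, 445 and 394 CPM against 416, 211 and 188, and Cd5 at 219, 147 and 238 CPM against 171, 96.5 and 114, higher with Pdcd1 in every library with overlapping ranges. Lag3, Havcr2, Ctla4 and Cd5 passed, where 11.9% of 7900 genes did (6.1% higher and 5.77% lower with Pdcd1): Lag3 by 1.40 (SE 0.17, adjusted p = 1.66e-05), Havcr2 by 1.53 (SE 0.19, adjusted p = 3.34e-05), Ctla4 by 0.67 (SE 0.11, adjusted p = 0.000300) and Cd5 by 0.56 (SE 0.11, adjusted p = 0.00247). Btla (−0.10, SE 0.26, adjusted p = 0.882) and Vsir (−0.38, SE 0.20, adjusted p = 0.268) did not, and the sign of Btla turned without TMM factors (0.07). Cd200r1 also passed (1.20, SE 0.35, adjusted p = 0.0286), but it met the count filter in 3 sums with Pdcd1 and only 1 without, so it entered the fit through the group where it was high and its call is no support for a difference.

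The split by Pdcd1 was set side by side in the 2 classes with an interaction term, chosen after the data were seen. None of the 7 receptors tested differed in edgeR's test (0.362% of 8021 genes did), and none had an unadjusted p under 0.05. The difference of CD8 T minus CD4 T was 0.05 (SE 0.26) for Lag3, 0.07 (SE 0.34) for Havcr2, 0.06 (SE 0.18) for Ctla4 and −0.02 (SE 0.19) for Cd5 on the log2 scale. The fits of the split were scaled by TMM, without which the median gene moved by 0.19 in CD8 T and 0.20 in CD4 T cells, and the share of called genes higher with Pdcd1 rose from 47.7% to 77.6% and from 51.4% to 80.2%. Without replicate 2, only Lag3 (1.03, adjusted p = 0.0222) and Havcr2 (1.39, adjusted p = 0.0230) remained called among the receptors in CD4 T cells. Without replicate 3, Cd200r1 and Cd5 were lost there (adjusted p = 0.143 and 0.294), and the call of Cd5 in CD8 T cells was lost without replicate 2 (adjusted p = 0.132) or 3 (adjusted p = 0.0594).

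**Figure D5:**
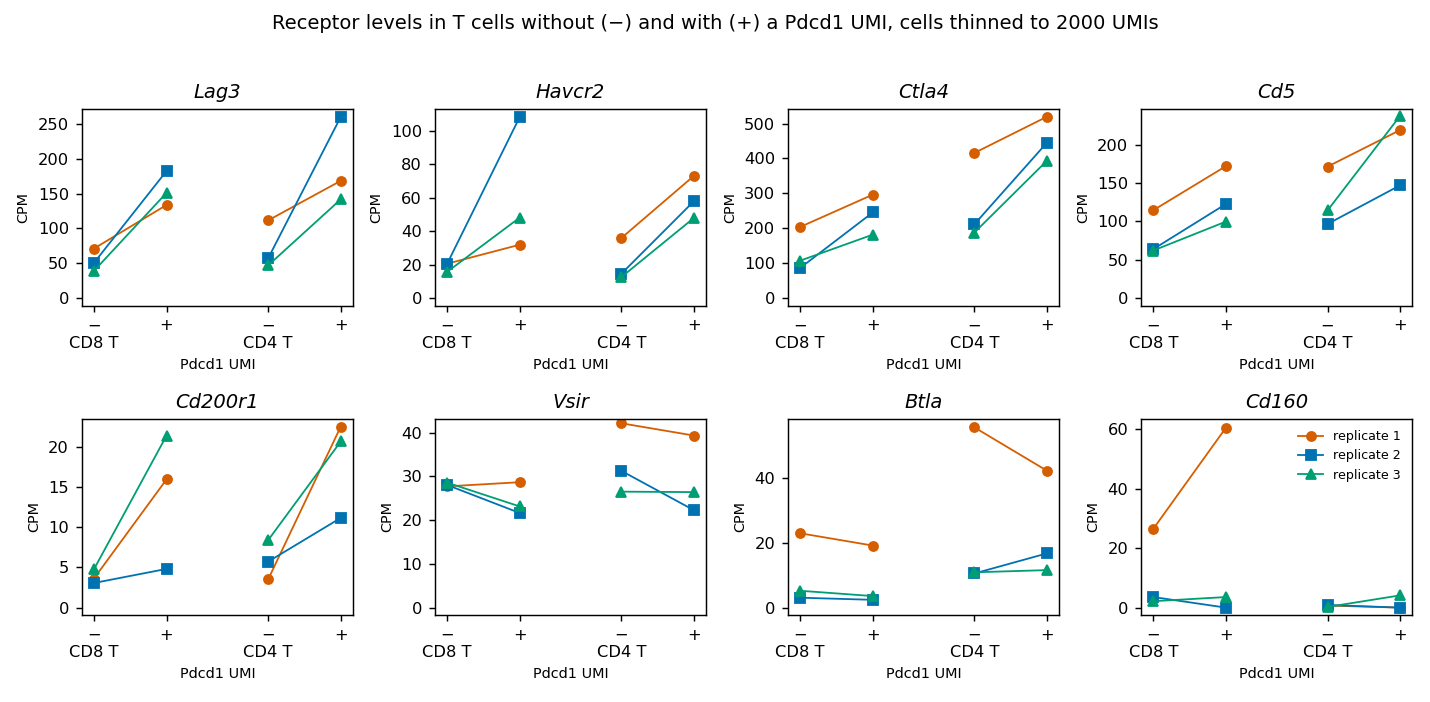
Level of the other 8 receptors (CPM, linear axes from 0) in CD8 T and CD4 T cells without (−) and with (+) a Pdcd1 UMI after thinning to 2000 UMIs. Each line joins the 2 groups of 1 library. Lag3, Havcr2, Ctla4, Cd5 and Cd200r1 rise in all 3 lines of both classes, with Cd200r1 under the count filter in CD8 T cells, while Vsir falls in 5 of the 6 lines and Btla in all 3 lines of CD8 T cells and 1 of 3 of CD4 T cells.

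Other genes moved with Pdcd1 in the same cells. In CD8 T cells the 5 with the largest increase were Penk (1.93, adjusted p = 5.30e-20), which encodes proenkephalin, Trgv2 (1.88), Impa2 (1.85), Entpd1 (1.82), which encodes the ectonucleotidase CD39, and Tcrg-C2 (1.81). Entpd1 met the count filter in 3 sums with Pdcd1 and 2 without. It thus entered the fit through the group where it was high, and its call is no support for a difference. In CD4 T cells they were the chemokines Ccl4 (3.43, adjusted p = 9.01e-05) and Ccl3 (2.77), each higher in 2 of 3 libraries, then Penk (2.18), the chemokine receptor Cxcr6 (2.08) and Areg (1.96). Lef1, a transcription factor of naive and memory T cells, fell by 2.10 in CD8 T and by 2.32 in CD4 T cells. Txk and Cd55 fell by 1.87 and 1.83 in CD4 T cells. In CD8 T cells Fam241a, Rgcc and Kif23 fell by 2.05, 1.98 and 1.94. The plasma cell gene Jchain fell by 3.55 in CD8 T cells, from 117 to 10.2 CPM, and the immunoglobulin gene Iglc1 by 2.06 in CD4 T cells. These last belong to another cell type, and their part in the split was not tested.

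Among related genes, 5 of the 7 costimulatory receptors rose with Pdcd1 in CD8 T cells and 4 of 7 in CD4 T cells, and none fell, where 5.19% and 6.1% of all genes rose. Tnfrsf9 (4-1BB) rose by 1.46 and 1.54. Of the 20 other inhibitory receptors, 7 were tested in CD8 T cells and 9 in CD4 T cells, and 5 rose in each, among them Tigit (1.37 and 1.21) and Entpd1 (1.82 and 1.14). Some entered the fit through the group with Pdcd1, so these counts are a description. In CD8 T cells Tigit met the count filter in 3 sums with Pdcd1 and 1 without, and Entpd1 in 3 with and 2 without. Of the 17 signalling partners 1 rose in CD8 T and 4 in CD4 T cells, with the kinase Fyn at 0.63 and 0.49. Of 9 ligands tested 2 rose in each class, Lgals3 by 0.81 and 1.25 and Cd200, the ligand of CD200R1, by 0.72 and 0.99.

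The promoters of Pdcd1 and of the receptors that rose with it in both classes and have a RefSeq window are shown, since these genes moved together. Each window is 300 bases around the RefSeq start on GRCm38.p6, read 5′ to 3′ on the gene's strand, with matches to the NFAT core (GGAAA, either strand) in capitals. For Ctla4 this start lies inside the GENCODE span given above (60887000 to 60915832), so the annotations differ in where the gene begins. NFAT is a transcription factor of antigen receptor signalling.
Pdcd1, chr1:94052504-94052803, minus strand: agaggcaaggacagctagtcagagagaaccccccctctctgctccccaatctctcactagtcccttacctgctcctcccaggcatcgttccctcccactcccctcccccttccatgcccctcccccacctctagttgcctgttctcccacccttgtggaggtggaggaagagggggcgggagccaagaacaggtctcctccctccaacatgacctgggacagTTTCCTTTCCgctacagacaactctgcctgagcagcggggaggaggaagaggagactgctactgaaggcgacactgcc
Ctla4, chr1:60908775-60909074, plus strand: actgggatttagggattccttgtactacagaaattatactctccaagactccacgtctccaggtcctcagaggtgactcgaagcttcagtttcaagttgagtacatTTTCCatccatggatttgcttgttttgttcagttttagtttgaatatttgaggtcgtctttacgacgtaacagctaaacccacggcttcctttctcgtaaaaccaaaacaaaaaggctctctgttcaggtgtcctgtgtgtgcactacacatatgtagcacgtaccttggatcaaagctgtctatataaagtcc
Havcr2, chr11:46454681-46454980, plus strand: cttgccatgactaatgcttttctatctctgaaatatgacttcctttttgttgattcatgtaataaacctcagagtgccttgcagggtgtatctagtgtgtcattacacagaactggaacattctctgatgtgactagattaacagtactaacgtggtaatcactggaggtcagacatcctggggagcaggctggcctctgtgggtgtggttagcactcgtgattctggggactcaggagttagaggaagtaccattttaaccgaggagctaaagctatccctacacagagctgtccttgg
Cd5, chr19:10738925-10739224, minus strand: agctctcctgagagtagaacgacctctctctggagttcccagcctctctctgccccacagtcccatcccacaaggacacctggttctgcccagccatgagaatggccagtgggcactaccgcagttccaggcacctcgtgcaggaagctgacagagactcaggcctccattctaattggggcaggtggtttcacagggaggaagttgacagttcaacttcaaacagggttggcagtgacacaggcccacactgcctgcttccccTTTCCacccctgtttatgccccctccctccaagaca

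The window of Pdcd1 held 2 matches to this core, side by side, those of Ctla4 and Cd5 held 1 each and that of Havcr2 none. Of 32851 promoter windows of this length, 61.3% held at least 1. The AP-1 motif TGANTCA was found once, in the window of Havcr2, and in 7.81% of all windows, and the forkhead motif TGTTTAC in none of these 4 and in 3.65% of all. A match of letters is a description of the window and not a binding site.

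The genes around these receptors in the same pathways were also counted between the classes. Of the 20 other inhibitory receptors, 2 were higher and 2 lower in CD8 T than in CD4 T cells (4.55% and 6.61% of all genes), with Klrc1, which encodes the receptor NKG2A, at 95.7 against 4.61 CPM (log2 fold change 4.51, SE 0.22, adjusted p = 3.81e-08) and Nt5e lower (−1.03, adjusted p = 0.000319). Between CD8 T and Treg cells 10 of the 20 were lower and 1 higher in CD8 T cells (9.86% and 6.81% of all genes). In Treg against CD4 T cells 4 were higher and none lower (3.48% and 2.29% of all genes), with Lilrb4a at 1.52 (SE 0.20, adjusted p = 0.000245), and 16 did not pass. The median log2 fold change of the list for CD4 T against Treg cells was −0.59, against 0.00 for all genes. This list includes receptors far higher in B cells or macrophages than in T cells, such as Cd72 and Sirpa. Summed B cell markers were at 363 to 758 CPM in Treg, 246 to 456 in CD4 T and 109 to 277 in CD8 T cells. The part of RNA of other classes in the counts of this list was not tested. Of the 7 costimulatory receptors, 3 were lower in CD8 T than in CD4 T cells, among them Tnfrsf4, which encodes OX40 (−2.35, SE 0.21, adjusted p = 3.15e-06), and Icos (−0.86, SE 0.12, adjusted p = 0.000228), and 2 were higher in Treg than in CD4 T cells, Tnfrsf9 (2.06, SE 0.20, adjusted p = 1.64e-05) and Tnfrsf18 (0.58, SE 0.15, adjusted p = 0.0328).

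The ligands were divided between the classes. Cd86, which CTLA-4 and CD28 share, was at 160.0, 297 and 297 CPM in B cells and at 349, 404 and 449 CPM in macrophages, against 37.3, 41.4 and 40.7 CPM in CD4 T cells (log2 fold change of CD4 T against B cells −2.75, SE 0.21, adjusted p = 3.14e-08). Cd274, which encodes PD-L1, was at 164, 238 and 272 CPM in macrophages and between 32.9 and 79.1 CPM in the values of the other classes. Cd200 was at 226, 147 and 149 CPM in CD4 T cells and 107, 59.9 and 60.6 CPM in CD8 T cells (−1.11 in CD8 T, SE 0.13, adjusted p = 2.63e-05). Of 13 ligands 10 were tested. Of these 1 was higher and 1 lower in CD8 T than in CD4 T cells, Selplg and Cd200 (4.55% and 6.61% of all genes). Fgl1, a ligand of LAG-3, had no UMI in any class.

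Of the 17 signalling partners, 3 were lower in CD8 T than in CD4 T cells and none higher (6.61% and 4.55% of all genes), with Ubash3a at −0.58 (adjusted p = 0.00555) and Ptpn11, which encodes SHP-2, at −0.54 (adjusted p = 0.0105). Ptpn11 was also higher in CD4 T than in Treg cells (0.66, adjusted p = 0.00630). Ptpn6, which encodes SHP-1, and Inpp5d, which encodes the phosphatase SHIP-1, were lower in CD4 T than in B cells, by −2.12 (adjusted p = 5.21e-07) and −1.73 (adjusted p = 6.12e-10).

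The genes whose level over the 15 class sums was most like each receptor were found by Pearson's r of log2(CPM + 1) among 5407 genes. The sums share libraries, and most of the spread is between T cells, B cells and macrophages, so r is a description only. Cd5 had the closest partners, Zap70 (r = 0.997) and Tox (r = 0.995). Pdcd1 was most like Spn (0.978) and Ifngr1 (0.972), Ctla4 like Cep120 (0.980), Ube2b (0.978) and Gata3 (0.976), and Havcr2 like Abr (0.977) and Capn2 (0.976). Vsir was most like Lcp2 (0.977), Btla like Luc7l2 (0.970), Cd200r1 like Tax1bp1 (0.949) and Cd160 like Ybx3 (0.931) and Xcl1 (0.898). Genes close to Lag3 included Tbc1d10b (0.965) and Emb (0.955).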

How the data were processed

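For each of the 3 libraries the authors deposited a matrix of raw UMI counts from Cell Ranger 6.0.1 on mm10, without normalization or cell type names. The matrices held 26947 barcodes, of which 26142 passed the limits given below, so most empty droplets had already been left out. The methods give 2 independent experiments, and no source used here ties a library to either, so batch could not be a term. The 9 receptors, the gene lists, the classes and the tests were chosen with earlier results of these data known. Cells with at least 1000 UMIs and under 10% mitochondrial UMIs were classed by the rules given with the results. Replicates are separate libraries of pooled mice. The p-values measure only how the differences between classes or groups varied over these 3 libraries, with the level of each library taken out. In the class fit, each gene has 1 estimate of the spread for all classes. Macrophage sums of 10 to 31 cells are thus assumed to vary like those of T cells.

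UMIs were summed per library and class (at least 10 cells, 15 sums of 126156 to 20196284 UMIs) and fitted together in edgeR 4.0.16 in R 4.3.3 (filterByExpr, TMM, glmQLFit, glmQLFTest) with the library as a block, at an adjusted p of 0.05. The SE was taken as the absolute log2 fold change over the square root of the F statistic. All classes of a library derive from one pool of mice, and deviations from the class means correlated with r from 0.07 to 0.82 (mean 0.39, 30 pairs) within libraries and a mean of −0.17 between them (60 pairs). Deviations from a mean over the libraries cancel within each class. That alone pulls the value between libraries below the value within them, so the negative mean adds no evidence of pairing. Cells for shares, co-detection and the Pdcd1 split were thinned to 2000 UMIs, leaving out 2 CD8 T, 43 CD4 T, 20 Treg and 26 B cells and 1 macrophage, and Pdcd1 itself was left out of the split fits. Mean shares and receptors per macrophage leave out replicate 2, with 9 cells. Intervals are exact 95% intervals and, like the floor of 3 counts, cover counting error only. Doublets were kept, and an alternative removed up to 7.6% of each library by Scrublet score (scanpy 1.11.5). Tested on simulated data (11398 to 11423 genes), the fit recovered 35.7% (Treg against CD4 T) and 35.8% (CD8 T against CD4 T) of genes changed by 1 on the log2 scale and 94.8% and 96.8% of those changed by 2, so a receptor that did not pass may still differ. The simulation drew every class from the CD4 T mean levels, with a single fixed dispersion and no library effect. Its rates therefore need not hold for the real sums, which are paired by library. Named genes are the 9 receptors, the 2 members of each list with the largest change each way among those called at 20 CPM or more, the 3 genes most like each receptor, and for the split the 5 largest changes each way among genes called at 50 CPM or more. Some genes that this rule names are not reported here. Fgl1 was named after its values were seen, as were the classes in which Cd86, Cd274 and Cd200 levels are given. DESeq2 1.42.0 served as an alternative.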

Additional observations from a re-analysis of the deposited data

Results flagged for a closer look

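The 10410 cells that met no class rule entered no comparison and held UMIs of all 9 receptors. Their mean levels over the 3 libraries were 103 CPM for Pdcd1, 31.2 for Lag3, 64.5 for Havcr2, 126 for Ctla4, 19.0 for Btla, 4.06 for Cd160, 25.1 for Vsir, 9.09 for Cd200r1 and 68.5 for Cd5. These cells are a mixture, with Cd3e at 346 CPM, Cd79a at 176 and Jchain at 452. Havcr2 stood at 115 CPM in replicate 1 and at 33.4 and 45.5 CPM in replicates 2 and 3, and Btla at 38.1 against 9.82 and 9.0 CPM. Cd160 was at 6.68, 3.21 and 2.30 CPM, so its high level in the CD8 T cells of replicate 1 was not as marked in these cells.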

How the results depend on the processing

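Of the receptors' log2 fold changes under the alternatives, 1271 stayed on their side of the threshold, 28 of them with a change of sign in values that had not passed, 22 passed it newly and 76 lost it. Cd200r1 between B cells and macrophages reversed to 2.55 under the cell filter of the study, where only replicate 1 gave a macrophage sum and the lone sum is assumed to vary like the others. The cause was not tested for any change given here. Without the replicate block the genes called fell to 425 (CD8 T against CD4 T), 781 (CD8 T against Treg), 3832 (CD8 T against B), 105 (CD4 T against Treg), 4089 (CD4 T against B), 3829 (Treg against B) and 50 and 43 for the Pdcd1 split in CD8 T and CD4 T cells, and the receptors called to 0 for CD8 T against CD4 T, 2 for CD8 T against Treg, 3 for B against macrophage, and 1 and 0 for the splits. The cell filter of the study gave 721 genes for CD8 T against CD4 T, 1412, 1454, 1299 and 1370 for CD8 T, CD4 T, Treg and B cells against macrophages, and 3 receptors for CD4 T against Treg and 2 for B against macrophage. Sums of thinned cells, where replicate 2 had too few macrophages, gave 2157, 2132, 1943 and 2076 genes against macrophages in that order, and 3 receptors for both CD8 T against CD4 T and B against macrophage. Without TMM factors 7 receptors passed for CD8 T against Treg and 2 for CD4 T against Treg, where 2597 and 797 genes did. Removing cells with a UMI of another class gave 2 receptors for CD4 T against Treg. Where receptors are given here without a gene count, the genes called stayed within a set fold of the main count. In the main fit 1350 genes (11.2%) passed for CD8 T against CD4 T and 698 (5.77%) for CD4 T against Treg. For B against macrophage 4359 (36.0%) did. Without the filter on low counts 1164 genes passed for CD4 T against Treg. For the splits DESeq2 called 274 and 410 genes and 3 receptors in CD4 T cells, and unthinned cells 1401 and 1595 genes. Pairs above the product in every library came to 5 in CD8 T cells thinned to 1000 UMIs, and to 26 and 25 in unthinned CD8 T and CD4 T cells.

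Leaving out each replicate gave 445 to 1646 genes (2 to 5 receptors) for CD8 T against CD4 T, 771 to 2464 for CD8 T against Treg, 3856 to 6437 for CD8 T against B, 124 to 1131 for CD4 T against Treg, 4088 to 6688 for CD4 T against B, 3752 to 6199 for Treg against B, 2650 to 3390 for Treg against macrophage, 3 to 4 receptors for B against macrophage, and 295 to 665 (3 to 4 receptors) and 215 to 1435 (2 to 5 receptors) for the splits in CD8 T and CD4 T cells. Without TMM factors the median gene moved by −0.11 (CD8 T against CD4 T), −0.20 (CD8 T against Treg), 0.12 (CD4 T against B), 0.21 (Treg against B), 0.10 (Treg against macrophage) and −0.11 (B against macrophage), and the share of calls higher in the first class changed from 39.7% to 25.6% for CD4 T against Treg, 52.8% to 63.7% for CD4 T against B and 53.5% to 71.8% for Treg against B. Against macrophages DESeq2 changed it from 58.7%, 58.1%, 58.6% and 57.2% to 45.4%, 45.3%, 45.5% and 40.8% for CD8 T, CD4 T, Treg and B cells. Values of macrophages rest on 68 cells and those of Cd160 and Cd200r1 on few UMIs, which limits what a difference there can show.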
